A study of Mus musculus with 2 samples.

Results

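Accessible chromatin was examined at 10 genes of Wnt signalling and liver zonation, namely Axin2, Lgr4, Lgr5, Rnf43, Znrf3, Tbx3, Tcf7l2, Ctnnb1, Apc and Lect2. They were picked by name, with earlier results of these data known. Of the 69549 distinct accessible regions in the table of the authors, 37 have the transcription start site (TSS) of one of these genes as their closest TSS. A region was counted as a promoter region when its centre lay within 1 kb of that TSS, which holds for 10 of the 37 (14387 of all regions), and the other 27 are described apart.

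The data come from ATAC-seq, in which the Tn5 transposase cuts open DNA and inserts sequencing adaptors, so that reads gather where chromatin is accessible. The control library was made from Mettl3 flox/flox livers, in which the m6A methyltransferase gene Mettl3 is flanked by loxP sites and no Cre is present. The Mettl3-HKO library was made from livers of Mettl3 flox/flox Alb-Cre+/- mice, in which Cre under the albumin promoter deletes the gene in hepatocytes and leaves it in the other cells of the liver. All mice were C57BL/6, on normal chow and 8 weeks old, and each library was a pool of 4 livers. With 1 library per genotype there is no replicate error and no test across mice. These are called the control library and the HKO library. Every log2 ratio is HKO over control, scaled by the total reads of each library and with 1 read added to each count, and its 95% Clopper-Pearson interval covers counting error only. Whole liver was used, so that a change in the share of a cell type and a change in accessibility within its cells cannot be told apart. The libraries had 52826202 and 58038305 reads, of which 31.7% and 22.3% lay in regions. The median log2 ratio was −0.38 over all regions, −0.56 over promoter regions and −0.27 over the others, so each gene is read against these values.

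Wnt ligands bind Frizzled receptors and LRP coreceptors and stop the destruction complex, built on APC and AXIN proteins, from marking β-catenin for degradation. β-catenin then enters the nucleus and acts with TCF/LEF factors on target genes. R-spondins strengthen the signal: they bind LGR4 or LGR5 and remove RNF43 and ZNRF3, ubiquitin ligases that otherwise take Frizzled off the membrane. In the liver, endothelial cells of the central vein supply Wnt ligands and R-spondin 3, and the signal sets the pericentral programme of hepatocytes, with glutamine synthetase (Glul) next to the vein and urea cycle and gluconeogenic genes towards the portal tract.

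RefSeq promoter windows (250 bases before to 50 after a start site, build GRCm38.p6) were matched by symbol for 6 of the 10 genes, with 9 windows in all. The windows printed are 1 for each gene with an accessible promoter in its window, which serve the comparison of promoter ratios, the second start site of Tcf7l2 and the Lect2 window, which lies outside every region. The letters CTTTGA and CTTTGT, common forms of the TCF/LEF motif, were searched on both strands, and a match is printed in capitals. Each sequence runs 5′ to 3′ in the direction of its gene.
Axin2 (chr11:108920099-108920398, plus strand): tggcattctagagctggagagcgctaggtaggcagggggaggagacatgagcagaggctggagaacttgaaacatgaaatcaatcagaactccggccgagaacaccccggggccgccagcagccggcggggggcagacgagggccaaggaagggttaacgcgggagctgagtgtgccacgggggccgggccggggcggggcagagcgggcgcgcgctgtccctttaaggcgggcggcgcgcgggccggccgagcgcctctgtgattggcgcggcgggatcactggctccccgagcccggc
Lgr4 (chr2:109917397-109917696, plus strand): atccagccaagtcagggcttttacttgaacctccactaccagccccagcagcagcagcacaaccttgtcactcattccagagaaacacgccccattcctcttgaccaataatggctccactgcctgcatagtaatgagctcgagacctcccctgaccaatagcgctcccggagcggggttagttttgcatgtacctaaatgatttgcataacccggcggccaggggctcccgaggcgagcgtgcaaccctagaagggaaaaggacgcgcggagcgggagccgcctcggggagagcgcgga
Tcf7l2 (chr19:55741560-55741859, plus strand): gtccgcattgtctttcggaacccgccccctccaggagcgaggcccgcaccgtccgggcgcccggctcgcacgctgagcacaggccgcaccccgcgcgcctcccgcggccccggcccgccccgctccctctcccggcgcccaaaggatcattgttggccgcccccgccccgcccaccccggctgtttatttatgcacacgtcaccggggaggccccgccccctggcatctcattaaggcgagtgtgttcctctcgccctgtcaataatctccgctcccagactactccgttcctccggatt
Tcf7l2, second start (chr19:55895071-55895370, plus strand): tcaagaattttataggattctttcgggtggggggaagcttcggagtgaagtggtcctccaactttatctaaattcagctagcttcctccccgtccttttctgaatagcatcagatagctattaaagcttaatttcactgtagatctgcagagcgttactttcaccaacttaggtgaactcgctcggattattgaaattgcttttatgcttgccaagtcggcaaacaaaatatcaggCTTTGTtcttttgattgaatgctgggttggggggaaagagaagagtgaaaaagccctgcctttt
Ctnnb1 (chr9:120933150-120933449, plus strand): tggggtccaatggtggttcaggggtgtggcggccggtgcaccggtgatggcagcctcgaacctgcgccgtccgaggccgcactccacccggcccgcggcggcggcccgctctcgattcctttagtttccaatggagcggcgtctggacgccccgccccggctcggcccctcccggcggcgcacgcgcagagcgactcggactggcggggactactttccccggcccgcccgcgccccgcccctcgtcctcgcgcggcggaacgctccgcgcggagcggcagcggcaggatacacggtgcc
Lect2 (chr13:56548489-56548788, minus strand): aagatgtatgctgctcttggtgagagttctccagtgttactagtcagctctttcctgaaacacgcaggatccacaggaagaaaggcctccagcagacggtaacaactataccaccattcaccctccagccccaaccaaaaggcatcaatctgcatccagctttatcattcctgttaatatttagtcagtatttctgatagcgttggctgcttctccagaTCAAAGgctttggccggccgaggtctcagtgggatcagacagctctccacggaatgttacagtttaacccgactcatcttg

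The windows at an accessible promoter differed in their number of CpG dinucleotides. The Ctnnb1 window had 46, a second, overlapping Ctnnb1 window that is not printed (chr9:120933328-120933627) 51, that of Tcf7l2 34, that of Axin2 31 and that of Lgr4 18, against a median of 7 over all 32851 RefSeq promoter windows, whose middle 50% ran from 3 to 20. The region at Lgr4, Tcf7l2 and Ctnnb1 covered all 300 bases of its window, both windows at Ctnnb1 included, and the region at Axin2 covered 238. Windows outside every region had fewer, with 7 for Lect2, 7 for the second start of Tcf7l2, and 10 and 3 for Rnf43. Of the 9 windows, 2 held a motif, and both of these lay outside every region. The second Tcf7l2 window holds CTTTGT at −14, and the Lect2 window holds CTTTGA on the opposite strand at −31, printed as TCAAAG, counted from the start site to the leftmost base of the match. Of all RefSeq windows, 16% held CTTTGA, 18.7% CTTTGT and 31.2% either.

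All 10 promoter regions had a log2 ratio below 0, and none was 2-fold lower or 2-fold higher. Of all promoter regions 83.9% were below 0, 16.3% were at least 2-fold lower and 4.07% at least 2-fold higher. The median of the 10 was −0.60, from −0.96 to −0.10, beside −0.56 over all promoter regions, whose middle 50% ran from −0.85 to −0.25. The interval lay below 0 for 8 of the 10, against 72.4% of all promoter regions, and above 0 for none, against 8.08%. Relative to the median of all regions, 8 were below it and 2 above, the promoters of Lgr4 and Tcf7l2, beside 66.4% and 33.6% of all promoter regions. The 10 promoter regions together held 6051 control and 4685 HKO counts, a log2 ratio of −0.50 (interval −0.56 to −0.45), and all promoter regions together gave −0.61. A peak was called in both libraries at all 10, which holds for 83.3% of all promoter regions.

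Levels were compared between genes by the fold enrichment of the authors, the reads per base in a region over the reads per base in the genome. Lgr4 had the highest promoter in both libraries, at 63.0 and 58.9, followed in the control by Ctnnb1 at 50.6, Tbx3 at 43.5, Apc at 40.7, Znrf3 at 38.3 and Tcf7l2 at 34.6. Rnf43, at 24.7, and Axin2, at 21.6, lay below the median of all promoter regions, which was 25.8. Lgr5 had the weakest promoter, with 13.4 and 12.8 in its pair of regions. In the HKO library the median of all promoter regions was 16.7. There Tcf7l2, at 29.4, stood above Apc, at 21.9, and Znrf3, at 21.6. The plot of promoter levels gives each pair of values.

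**Figure D1:**
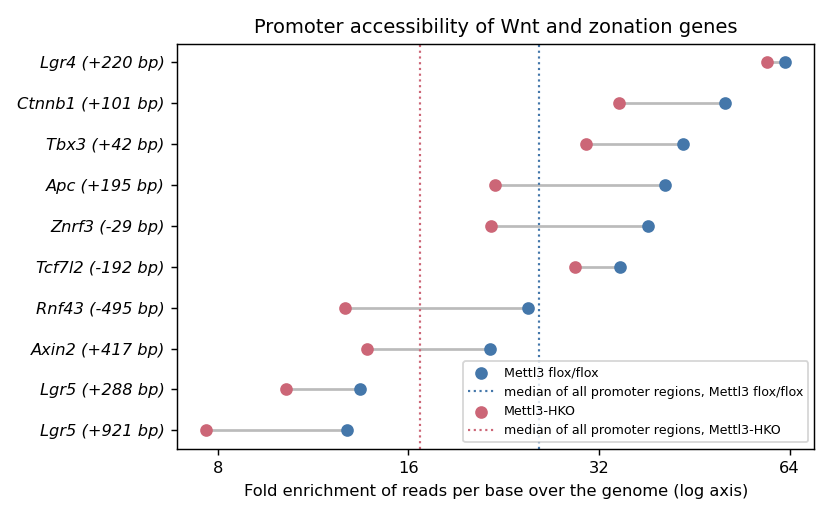
Fold enrichment of reads per base over the genome (log axis) in the 10 promoter regions, 1 row per region with its distance from the TSS. Points are the single libraries, joined by a line, and dotted lines are the medians of all promoter regions (25.8 and 16.7); the Mettl3-HKO point lies left of the Mettl3 flox/flox point in every row, with the shortest lines at Lgr4 and Tcf7l2.

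Among the receptors, Lgr4 encodes the R-spondin receptor of hepatocytes and Lgr5 one that in the normal liver is found mainly in the hepatocytes beside the central vein. The Lgr4 promoter region (chr2:109917310-109918425, centred in the 5′ UTR, 220 bp downstream of the TSS) had 1360 counts in control and 1395 in HKO liver. Its log2 ratio was −0.10 (interval −0.21 to 0.0097), so that a difference after scaling to depth was not detectable at this depth. It was the highest of the 9 genes with a promoter region, at the 81.1th percentile of all promoter regions, and stood at 0.28 relative to the median of all regions. Lgr5 had a pair of weak promoter regions. The one in exon 1 (chr10:115587318-115587625) had 79 and 66 counts and a log2 ratio of −0.39 (−0.89 to 0.095), and the one in intron 1 (chr10:115586483-115587193), 921 bp from the TSS and thus just inside the promoter limit, had 175 and 115 counts and −0.74 (−1.09 to −0.39). The intervals of these regions overlap, so a difference between them was not detectable at this depth.

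Rnf43 and Znrf3, the ligases that R-spondins remove, had ratios near each other. The Znrf3 promoter region (chr11:5444290-5445464, centred 29 bp upstream of the TSS) had 869 and 538 counts, a log2 ratio of −0.83 (−0.99 to −0.67). The Rnf43 region (chr11:87662360-87662825, centred 495 bp upstream) had 222 and 125 counts, −0.96 (−1.29 to −0.64). It was the lowest ratio among the promoters, at the 18.4th percentile of all promoter regions, and its interval did not overlap that of Lgr4. The Rnf43 region ended before its RefSeq window, with 0 bases shared.

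In the destruction complex, Apc encodes the scaffold that binds β-catenin and Axin2 a scaffold that is itself a Wnt target. The Apc promoter region (chr18:34220624-34221736, centred in the 5′ UTR) had 875 and 518 counts, a log2 ratio of −0.89 (−1.05 to −0.73). A gene without a symbol in the table starts just beyond the end of this region on the other strand, so the reads cannot be given to Apc alone. The Axin2 region (chr11:108920161-108921373, centred in intron 1) had 505 and 354 counts, −0.65 (−0.85 to −0.45). The intervals overlap, and the difference between the genes was not tested.

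Ctnnb1, which encodes β-catenin, had 752 and 561 counts at its promoter region (chr9:120933118-120933886, centred in the 5′ UTR), a log2 ratio of −0.56 (−0.72 to −0.40), the same to 2 decimals as the median of all promoter regions. Tcf7l2 encodes the TCF factor that carries the signal in hepatocytes. Its promoter region (chr19:55741261-55741975, centred 192 bp upstream) had 477 and 445 counts, −0.24 (−0.43 to −0.047), at the 75.6th percentile and 0.14 above the median of all regions. Tbx3, a T-box repressor that is a target of β-catenin in liver, had 737 and 568 counts (chr5:119670273-119671150, centred in the 5′ UTR), −0.51 (−0.67 to −0.35). From low to high the promoters thus ran Rnf43, Apc, Znrf3, Lgr5, Axin2, Ctnnb1, Tbx3, Tcf7l2 and Lgr4, taking the region of Lgr5 with more counts. The intervals of every pair of neighbours in this order overlap. By its exon 1 region, at −0.39, Lgr5 would instead stand between Tbx3 and Tcf7l2.

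Lect2, a secreted hepatocyte protein and a target of β-catenin, had no promoter region. All 6 of its regions lay upstream of the TSS, and their ratios had both signs. The nearest, centred 1080 bp upstream (chr13:56549431-56549735) and so just outside the promoter limit, had 72 and 53 counts and a log2 ratio of −0.57 (−1.12 to −0.046). The strongest, 10520 bp upstream (chr13:56558825-56559221), had 242 and 166 counts, −0.68 (−0.97 to −0.39), whereas the region 8414 bp upstream (chr13:56556750-56557084) had 90 and 137 counts, 0.46 (0.076 to 0.87). The intervals of these neighbouring regions do not overlap. The other 3 regions had log2 ratios from −0.77 to 0.31.

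Away from promoters the ratios of the 27 regions were spread more widely, from −1.20 to 1.80, with 16 below 0 and 11 above, and 59.8% of all other regions were below 0. The median of the 27 was −0.38, beside −0.27 over all other regions, whose middle 50% ran from −0.84 to 0.56. At least 2-fold lower were 2 of the 27, against 18.8% of all other regions, and at least 2-fold higher were 4, against 15.6%. Intervals lay below 0 for 12, against 42.5%, and above 0 for 5, against 24.5%. Against the median of all regions, 13 of the 27 were above it and 14 below, beside 54.3% and 45.7% of all other regions. On that scale none was at least 2-fold lower, beside 8.65%, and 4 were at least 2-fold higher, beside 23.5%. Together these regions held 3165 and 3024 counts, a log2 ratio of −0.20 (−0.27 to −0.13), and all other regions together gave −0.43.

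A region enters the table through a peak in at least 1 library, so one with a peak in a single library was chosen for being high there, and its sign is a description and no result. Of the 8 regions with a peak in the HKO library only, 7 were above 0, the exception being a Lect2 region with 61 and 62 counts and −0.11 (−0.65 to 0.42), and all 6 with a peak in the control only were below 0. A peak was called in both libraries at 13 of the 27 regions (48.1%, against 56.1% of all other regions), in the control only at 6 (22.2%, against 19.1%) and in the HKO library only at 8 (29.6%, against 24.9%). The medians in these classes were −0.39, −0.82 and 1.01, and over all other regions −0.40, −1.03 and 1.09. All 4 regions that were 2-fold higher had a peak in the HKO library only and at most 30 counts in the control. Of all other regions with a peak in the HKO library only, 54.4% were at least 2-fold higher, and such regions made up 86.5% of all other regions that were 2-fold higher.

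**Figure D2:**
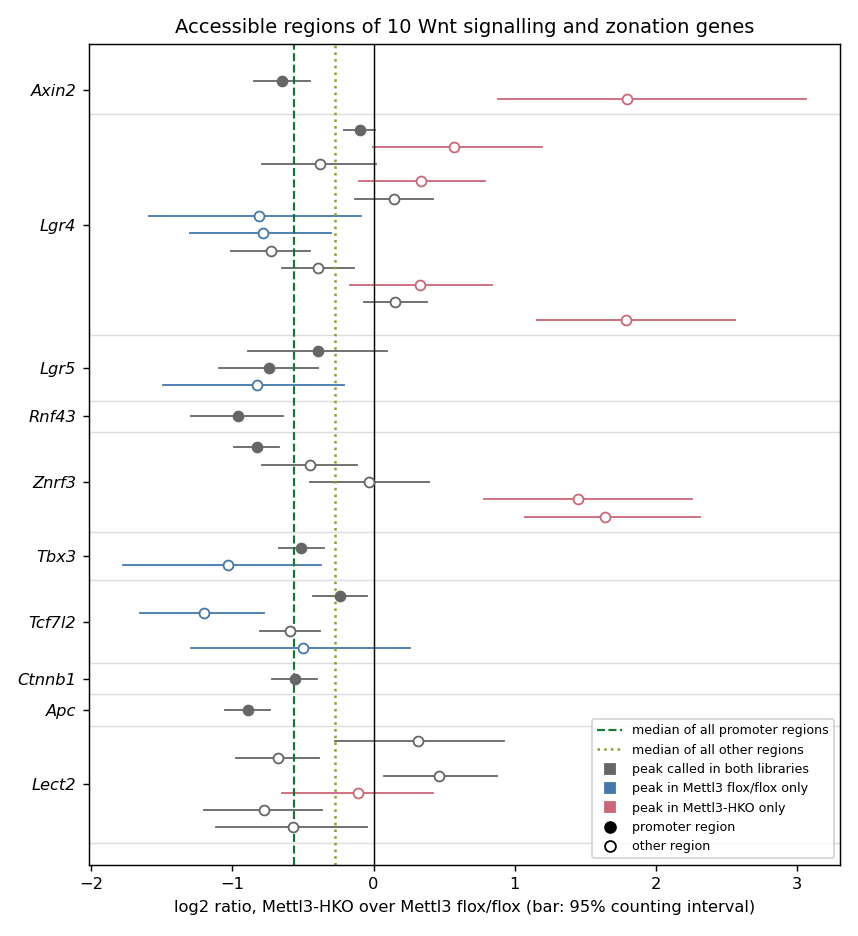
log2 ratio of HKO over control for the 37 regions, grouped by gene, with promoter regions first and then by distance. Bars are 95% Clopper-Pearson intervals, filled points are promoter regions, colours give the library with a peak, and vertical lines mark 0 and the medians of all promoter regions (−0.56) and all other regions (−0.27); the promoters lie between −0.96 and −0.10, while the other regions reach from −1.20 to 1.80.

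Lgr4 had the most regions, with 11 besides its promoter, all in intron 1 except the farthest, in intron 2. Their log2 ratios ran from −0.81 to 1.79, with 6 above 0 and 5 below, and their summed counts were 1497 and 1550, a ratio of −0.09. The strongest, 48613 bp downstream (chr2:109965806-109966715), had 303 and 371 counts, 0.16 (−0.067 to 0.38). The next, 41957 bp downstream (chr2:109959133-109960076), had 284 and 238 counts, −0.39 (−0.65 to −0.14). The region in intron 2, 57396 bp downstream (chr2:109974889-109975199), had 23 and 90 counts, 1.79 (1.16 to 2.56), with a peak in the HKO library only. Scaled by library totals, no region in intron 1 of Lgr4 had an interval above 0. Relative to the median of all regions, the strongest stood at 0.53 and the next at −0.01.

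Znrf3 had 4 regions in its intron 1. A peak was called in both libraries at those nearest the TSS, with 167 and 134 counts at 18393 bp (chr11:5426170-5426739), −0.45 (−0.79 to −0.12), and 93 and 100 counts at 22727 bp (chr11:5421891-5422349), −0.03 (−0.45 to 0.39). Those deeper in the intron had a peak in the HKO library only. They had 22 and 68 counts at 64347 bp (chr11:5380327-5380674), 1.45 (0.78 to 2.26), and 30 and 105 counts at 89862 bp (chr11:5354782-5355188), 1.64 (1.07 to 2.31). Both were thus chosen through the library in which they are high and are not set against the promoter.

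Beyond the promoter, the regions assigned to Tcf7l2 and Tbx3 had ratios below 0. Most of them were chosen through a peak in the control only. The Tcf7l2 region 1429 bp downstream (chr19:55743102-55743378) had 139 and 66 counts, −1.20 (−1.66 to −0.78), the lowest of the 37, with a peak in the control only. The region 2243 bp downstream (chr19:55743577-55744530) had 429 and 313 counts, −0.59 (−0.81 to −0.38). The third, 38321 bp downstream and with a peak in the control only, had 35 and 27, −0.50 (−1.29 to 0.26). The Tbx3 region in intron 3, 5802 bp downstream (chr5:119676328-119676615), had 53 and 28 counts, −1.03 (−1.77 to −0.37), and the remaining Lgr5 region, 1565 bp downstream in intron 1 (chr10:115586035-115586354), had 57 and 35, −0.82 (−1.49 to −0.21). The Tbx3 and Lgr5 regions had a peak in the control only. The Axin2 region 21938 bp upstream (chr11:108898238-108898585), with a peak in the HKO library only, had 10 and 41 counts, 1.80 (0.88 to 3.06), the highest of the 37. Rnf43, Ctnnb1 and Apc had no region outside their promoters by this assignment.

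A further 27 regions lie inside these genes but closer to the TSS of another gene, 7 of them in Lgr4, 7 in Tcf7l2, 5 in Apc, 4 in Rnf43, 3 in Znrf3 and 1 in Axin2. One of them, in Rnf43, is a promoter region of the other gene. They were added after the values were seen and count towards none of the numbers above. Their log2 ratios ran from −1.41 to 2.19, with 16 above 0 and 11 below, and by the 2-fold limit 4 were higher and 1 lower. Of all other regions 59.8% were below 0, 15.6% were 2-fold higher and 18.8% 2-fold lower. The 4 Tcf7l2 regions in intron 3, from 56197 to 66727 bp downstream of the TSS, had ratios from −1.41 to −0.63, with 91 and 37 counts in the lowest, and 3 of them had a peak in the control only. The 3 regions in introns 4 and 7 had a peak in the HKO library only, with 22 and 42 counts at 124128 bp (0.77), 13 and 61 at 134931 bp (2.01) and 17 and 79 at 174577 bp (2.02). The last of these lies downstream of the second start site printed above. The signs in Tcf7l2 go with the library that passed the peak calling and are given as a description.

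Lgr4 had the strongest of these inner regions, in intron 2 and closest to the TSS of Ccdc34, with 717 and 874 counts, 0.15 (0.0058 to 0.29). Towards its 3′ end, a region in intron 13 had 8 and 44 counts (2.19, interval 1.22 to 3.62) and one in the last exon 18 and 67 (1.70, 0.99 to 2.60). In Rnf43, the region in intron 2 farthest from the TSS, chosen through a peak in the HKO library only, had 45 and 100 counts, 1.0 (0.49 to 1.56), and the other 3, with a peak in both libraries, had ratios from −0.58 to −0.14. In Apc, the ratios ran from −0.61 to 0.74, and in Znrf3 from −0.14 to 0.47. Both kinds of region made up 54 in all, with 27 above 0 and 27 below. The 8 that were at least 2-fold higher all had a peak in the HKO library only, with 8 to 30 counts in the control and 41 to 105 in the HKO library, and 15.6% of all other regions were 2-fold higher.

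**Figure D3:**
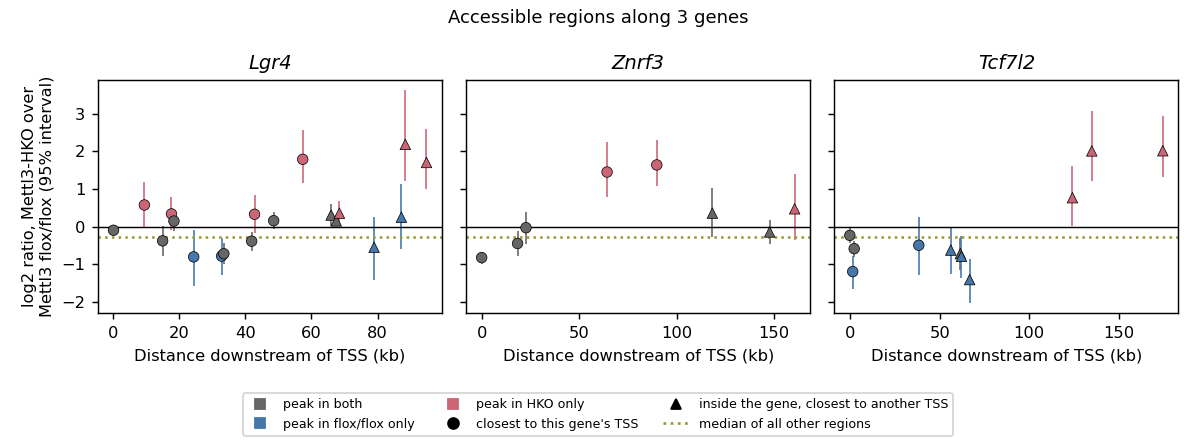
log2 ratio of HKO over control (with 95% interval) against distance downstream of the TSS in kb, for all regions in or closest to Lgr4, Znrf3 and Tcf7l2. Circles are regions closest to the TSS of the gene itself, triangles lie inside the gene but closest to another TSS, colours give the library with a peak, and the dotted line is the median of all other regions (−0.27). In Tcf7l2 all points up to 66727 bp, most of them with a peak in the control only, lie below 0. The 3 points from 124128 bp on, all with a peak in the HKO library only, lie above it.

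The wider pathway was described by the strongest promoter region of each gene, from lists drawn up with earlier results of these data known. The lists also hold genes described above, namely Lgr4 and Lgr5 among the receptors, Apc and Ctnnb1 in the destruction complex and Tcf7l2 among the nuclear effectors. Of 18 Wnt receptors and coreceptors, 14 had a promoter region, all below 0, with a median of −0.69 (−0.04 when centred on the strongest 10% of promoter regions). Of these 3 were at least 2-fold lower, Ror1 lowest at −1.47 (454 and 179 counts), and none 2-fold higher. Fzd4, the strongest by the mean of both libraries, had 2131 and 1497 counts and −0.64, and Fzd9 was highest at −0.03. Fzd5 was stronger than Fzd4 in the control, with 2512 and 1058 counts and −1.38. Of 20 genes of the destruction complex and signal transducers, 18 had a promoter region, all below 0, with a median of −0.56 that became 0.089 with that centring. Of these 1 was at least 2-fold lower, Fbxw11, an F-box protein that helps to tag β-catenin for degradation, with 1134 and 567 counts and −1.13. Gsk3b, which encodes the kinase of the complex and had the strongest promoter of the list, had 2768 and 2496 counts and −0.28, and Dvl3 was highest at −0.23.

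Of 14 nuclear Wnt effectors, 10 had a promoter region, with a median of −0.54 that became 0.11 under the same centring. Of these 2 were at least 2-fold lower, Tcf7 lowest at −1.55 (292 and 109 counts), and none 2-fold higher. Tle1, a corepressor with the strongest promoter of the list, stood at −0.51 and Pygo1 highest at 0.24. The Pygo1 region had 29 and 38 counts (interval −0.48 to 1.0) and a peak in the HKO library only. The list of 18 secreted and membrane inhibitors had 10 genes with a promoter region and a median of −0.97 (−0.33 with that centring), and it holds Rnf43 and Znrf3. Of these 4 were at least 2-fold lower, 1 of them, Sfrp1, with a peak in the control only, and none 2-fold higher. Sfrp4, which encodes a secreted Frizzled-related protein, was lowest, with 516 and 139 counts and −2.02 (−2.31 to −1.76), and Nkd2 highest at 0.15. The Wnt target list of 13 genes had 9 with a promoter region, all below 0, and a median of −0.74 (−0.091 with that centring), and 6 of its members are among the 10 genes described here. Notum, a secreted enzyme that inactivates Wnt ligands, was lowest, with 614 and 182 counts and −1.88 (−2.14 to −1.65), and it was one of 2 at least 2-fold lower. The other was Tcf7. Both are also counted above, Notum among the inhibitors and Tcf7 among the nuclear effectors. Of all promoter regions 83.9% were below 0 and 16.3% at least 2-fold lower, which are the shares to set beside these counts. The counts depend on the scaling. When centred on all regions, the genes at least 2-fold lower numbered 2 receptors, 0 of the destruction complex, 1 nuclear effector, 3 inhibitors and 2 targets, beside 5.0% of all promoter regions. When centred on the strongest 10% of promoter regions, they numbered 0, 0, 0, 2 and 1 in the same order, beside 1.99%.

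The zonation lists included genes of both ends of the lobule. Of 26 pericentral hepatocyte genes, 21 had a promoter region, with a median of −0.67 (−0.024 when centred on the strongest 10% of promoter regions). Of these 18 were below 0 and 3 above, with 6 at least 2-fold lower and none higher. Cyp1a2, at least 2-fold lower, had a peak in the control only, and Cyp2a5, above 0, in the HKO library only. Of 26 periportal genes, 25 had one, with a median of −0.76 (−0.12 with that centring). Of these 21 were below 0 and 4 above, with 9 at least 2-fold lower and 1 higher, and 83.9% of all promoter regions were below 0, 16.3% at least 2-fold lower and 4.07% higher. Hsd17b6, at least 2-fold lower, had a peak in the control only, and Cdh1, above 0, in the HKO library only. When centred on all regions, 5 pericentral and 3 periportal genes were at least 2-fold lower and 2 of each were higher, beside 5.0% and 6.90% of all promoter regions. With the strongest 10% as the centre, 3 and 1 were lower and 3 and 2 higher, beside 1.99% and 9.86%. The pericentral list holds Axin2, Tbx3, Lgr5 and Lect2. Glul had 971 and 627 counts at its promoter, a log2 ratio of −0.77 (−0.91 to −0.62). The lowest pericentral gene was Cyp2c29, with 190 and 53 counts and −1.96, and the highest Cyp7a1, the rate-limiting enzyme of bile acid synthesis, with 170 and 318 counts and 0.76 (0.49 to 1.05). Of the periportal genes, Aldh1b1 was highest at 1.25. The strongest promoters were those of Slc1a4, at −0.86, and Pck1, a gluconeogenic enzyme, at −1.23. Whether the zones differ was not tested.

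Of 25 Wnt ligands, R-spondins and secretion factors, 8 had a promoter region, 4 above 0 and 4 below, while 83.9% of all promoter regions were below 0. The median of the 8 was −0.24, and it became 0.14 when centred on all regions and 0.40 on the strongest 10% of promoter regions. Porcn, which acylates Wnt proteins, was lowest, with 142 and 71 counts and −1.13. Wnt1 was highest, with 11 and 36 counts and 1.49 (0.57 to 2.70), and Wls, the Wnt transporter and the strongest of the list, had 208 and 247 counts and 0.11 (−0.16 to 0.39). Of the ligands made by central vein endothelium, Wnt2 had 56 and 85 counts, 0.46 (−0.037 to 0.98), and Rspo3 31 and 58 counts, 0.75 (0.11 to 1.45), with intervals that include 0 for the first and not for the second. The Wnt1 and Rspo3 promoter regions had a peak in the HKO library only. A better covered Rspo3 region, centred at −18735 bp from its TSS and with a peak in both libraries, had 90 and 41 counts, −1.25 (−1.84 to −0.72). Wnt9b had no promoter region, and a region centred at −1068 bp from its TSS had 45 and 35 counts, −0.49. Wnt2b, Wnt5a and Wnt9a, the other ligands with a promoter region, stood at −0.60, −0.65 and −0.87. The Wnt2b and Wnt5a regions had a peak in the control only and were thus chosen for being high there. A weaker Wnt5a promoter region, also with a peak in the control only, had 49 and 22 counts, −1.26 (−2.09 to −0.54).

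Wnt2 and Rspo3 are also on the list of central vein and sinusoidal endothelial markers. Of its 17 genes, 11 had a promoter region, with a median of 1.07 from 0.14 at Eng to 1.78 at Stab2, and 6 were at least 2-fold higher, beside 4.07% of all promoter regions. A peak was called in the HKO library only at 7 of the 11, which were thus chosen for being high there, and these include all of the 6 except Thbd. Of all promoter regions with a peak in the HKO library only, 41.1% were at least 2-fold higher, and their median was 0.81. When centred on all regions or on the strongest 10% of promoter regions, the endothelial median became 1.45 or 1.72. On these scales 7 and 10 of the 11 were at least 2-fold higher, beside 6.90% and 9.86% of all promoter regions. The summed level of the 11 endothelial promoters was 6.80 RPM (reads scaled to library size) in control and 13.5 RPM in HKO liver, and Thbd, the strongest, had 80 and 186 counts. The part of endothelial cells in the ratios of the ligands was not tested. Of 8 Kupffer cell markers, 3 had a promoter region, 2 of them with a peak in the HKO library only, with a median of 1.08 from 0.53 at Cd14 to 2.05 at C1qa, and a summed level of 1.63 and 3.20 RPM. That median became 1.46 when centred on all regions and 1.73 on the strongest 10% of promoter regions. Kupffer markers without a promoter region had other regions of both signs. These stood at −0.85 and −0.42 for Adgre1, −5.975 and 1.91 for Marco, 0.10 and 0.62 for Csf1r and 1.07 for Clec4f. Of 8 hepatocyte markers, 6 had a promoter region, 5 with a peak in both libraries and Ttr with a peak in the control only, with a median of −0.67 (−0.023 when centred on the strongest 10% of promoter regions) from −1.08 at Ttr to 0.02 at Alb, and Apoa1, the strongest, had 667 and 505 counts. Cyp3a11, a hepatocyte marker without a promoter region, had 7 other regions with ratios from 0.39 to 1.34 and a median of 1.21. Of 8 cholangiocyte markers 5 had a promoter region (median −0.19, or 0.19 when centred on all regions, with Sox9 the strongest and Spp1 the highest at 1.19), of 8 stellate cell markers 2, Reln at −2.51 and Col1a1 at 0.08, and of 8 lymphocyte markers none. The Spp1 region had 13 and 34 counts (interval 0.29 to 2.30) and a peak in the HKO library only, so it was chosen for being high there.

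**Figure D4:**
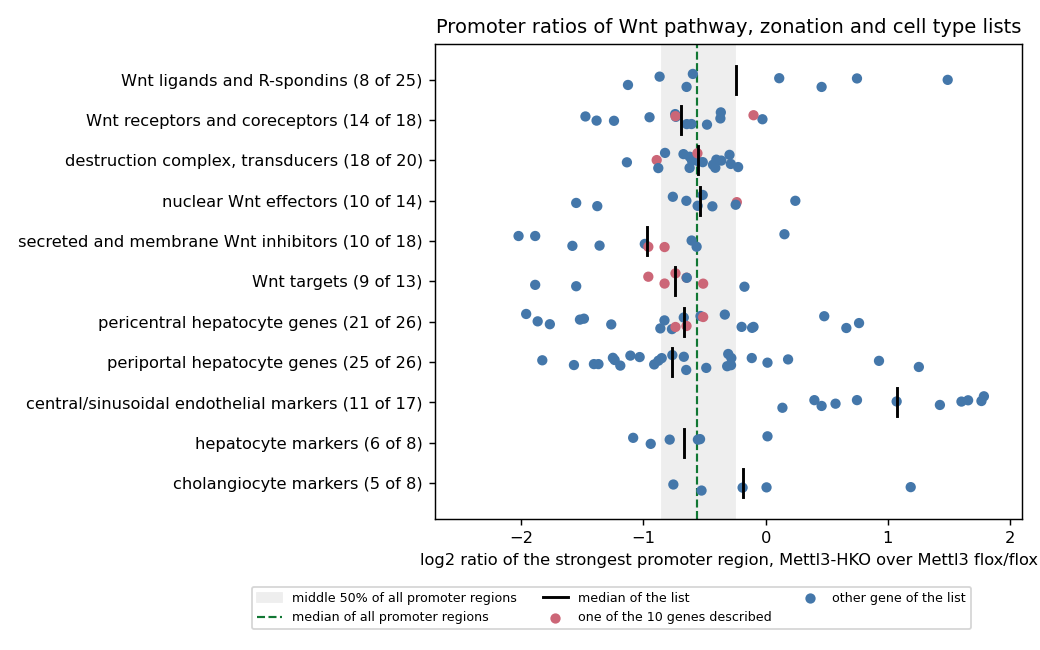
log2 ratio of HKO over control at the strongest promoter region of each gene, by list, with the number of genes that have one and the list size in brackets. Each point is a gene, red for one of the 10 genes described, black bars are list medians, and the band and dashed line give the middle 50% and the median (−0.56) of all promoter regions; the endothelial markers, 7 of 11 with a peak in the HKO library only, lie at 0.14 or above, while the list of inhibitors has its median at −0.97. Lists with fewer than 5 promoter regions are not drawn.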

How the data were processed

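ATAC-seq was analysed for 1 library per genotype, grouped by the sample labels. The authors trimmed reads with skewer, aligned them with BWA to GRCm38, filtered on mapping quality, proper pairs and non-mitochondrial reads, and ran MACS2 peak calling per library without removing duplicates, so reads are not all independent molecules. The counting of reads on merged regions and any Tn5 shift of read ends are not given in the sources used here.

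The authors deposited raw counts per region, RPM values (count plus 1, scaled to library size), a fold enrichment (read density of a region over that of the genome) and a log2 ratio that holds their own comparison and was not used. Library totals were recovered from the RPM values. Of 74821 rows, 5272 repeated a region and were left out. Regions were assigned by the symbol of the closest TSS. Starts were converted to count from 1.

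log2 ratios and 95% Clopper-Pearson intervals were computed from the counts (scipy), with no test, since there is 1 library per group. They were tested on simulated counts. The median region had 85 and 81 counts. Called regions are those changed at least 2-fold. The genes and lists were chosen with earlier results of these data known. Every promoter region of the 10 genes was named, with the 2 strongest other regions per gene and those changed 2-fold with at least 30 counts, and the lowest, highest and strongest promoter of each list, the Wnt ligands, the R-spondins and Glul. Some of these are not reported here. Other regions described by position, the regions inside the genes, and some further genes of the lists were named after their values were seen. The hepatocyte marker Tf was not matched by symbol. Alternatives covered scaling, added count, signal filter, promoter window, fold threshold and the value per gene. Scripts ran under Python 3.11.15 with scipy 1.17.1, numpy 2.4.6, matplotlib 3.10.9 and pandas 2.3.3.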

Additional observations from a re-analysis of the deposited data

How the results depend on the processing

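Scaling set the sign of several values, since it shifts every region by a constant. The promoter median of −0.60 became −0.22 when centred on the median of all regions, −0.091 with counts scaled to the reads in regions and 0.044 when centred on the strongest 10% of promoters. The median of the other regions, −0.38, became −0.0039, 0.13 and 0.26 in the same order. The sign turned at the promoters of Tcf7l2 (0.14, 0.28 and 0.41), of Tbx3 (0.00067 with reads in regions and 0.14 with the strongest promoters) and of Ctnnb1 (0.088 with the strongest promoters). Lgr4, whose interval includes 0, stood at 0.28, 0.41 and 0.55. The 2 other regions at least 2-fold lower became 0 under each of these scalings. That number was 1 with 10 added to each count, with the upper 50% of regions by mean RPM or with a promoter window of 2000 bp, 9 at 1.5-fold and 0 at 3-fold. The 4 other regions at least 2-fold higher became 4, 5 and 6 under the scalings in the same order, 0 in the upper 50% by mean RPM, since all 4 lie below that limit, and 8 with the regions inside the genes, added after seeing the data, which moved the median of the other regions to −0.0041. A window of 2000 bp moved that median to −0.072 and gave 1 promoter region at least 2-fold lower, where the main count was 0. With a window of 500 bp the Lgr5 promoter moved from −0.74 to −0.39. Within the 1 kb window, 5 promoter regions were at least 1.5-fold lower. No share of all regions is given at 1.5-fold or 3-fold, so the counts at these limits only describe these genes. Of the alternatives for these medians and counts, 41 moved a count by at most 1.5 times or a median by less than the counting error of the summed counts, 17 moved it further and 3 turned its sign. The lymphocyte list, which has no promoter region, gave no value. No paired analysis was possible because each genotype has 1 library, and for the same reason no library could be left out. With 1 pooled library per genotype, differences between mice, litters or preparations cannot be told apart from genotype, and depth limits the sparse regions, as at Axin2, where 10 and 41 counts left an interval from 0.88 to 3.06.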
